A study of Mus musculus with 10 samples.

Results

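The subject is the voltage-gated sodium channel of sensory neurons: 9 genes, Scn1a, Scn3a, Scn8a, Scn9a, Scn10a and Scn11a for the pore-forming alpha subunits and Scn2b, Scn3b and Scn4b for the auxiliary beta subunits. They were taken by symbol from a table of 45952 genes, and all 9 were found once. RNA-seq was performed on neurons purified by fluorescence-activated cell sorting (FACS) from lumbar dorsal root ganglia (DRG, 6 libraries, 3 male and 3 female) and trigeminal ganglia (TG, 4 libraries, 2 male and 2 female). Every mouse was a naïve adult of the Avil-EGFP line, STOCK Tg(Avil-EGFP)QD84Gsat/Mmucd, kept on a CD1 background, so all groups carry the same transgene and none was injured or treated. The sort took cells positive for GFP under the advillin promoter and negative for the dead-cell dye propidium iodide, with a fixed number of events from 1 animal in each library. The study's methods add that the dissociation favours small and medium neurons over large ones, and the labels name satellite glial cells as a contaminant.

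Voltage-gated sodium channels open on depolarization and carry the inward current of the action potential. An alpha subunit forms the whole pore from a chain of homologous domains, and beta subunits bind at its side, where they alter gating and help to bring the channel to the membrane. Sensory neurons are known for holding, next to channels that the pufferfish toxin tetrodotoxin blocks, a pair of channels that resist it, Nav1.8 from Scn10a and Nav1.9 from Scn11a, both typical of nociceptors, the neurons that signal damage.

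The annotation places the genes in clusters (GENCODE M21, build GRCm38). On chromosome 2, Scn3a (chr2:65457118-65567627), Scn1a (chr2:66270778-66440840) and Scn9a (chr2:66480080-66634962) lie on the minus strand, with 39.2 kb between Scn1a and Scn9a. On chromosome 9, Scn10a (chr9:119608456-119719322) and Scn11a (chr9:119753759-119825456) are minus-strand neighbours 34.4 kb apart, and Scn2b (chr9:45117782-45130070) and Scn4b (chr9:45138395-45154152) are plus-strand neighbours 8.3 kb apart. Scn3b (chr9:40269217-40291618) and Scn8a (chr15:100869858-101045938) stand alone on the plus strand. The alpha genes have 27 or 28 exons and a coding length of 5298 to 6030 bases, against 4 to 7 exons and 648 to 687 bases in the beta genes.

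The alpha subunits differ at 1 codon that is known to set their response to tetrodotoxin. It lies in the pore loop of the first domain, where an aromatic residue gives high sensitivity and serine gives resistance. The 30 bases around it, from GENCODE M21 transcripts with that codon in capitals, are shown for 5 alpha subunits because they divide those whose shares of the transcripts are given below.
Scn3a: ctcatgactcaagacTACtgggagaacctt
Scn8a: ctcatgactcaggacTACtgggagaactta
Scn9a: ctaatgactcaggacTACtgggagaacctt
Scn10a: ctcatgacgcaggacTCCtgggaacggctg
Scn11a: gttatgactcaagacTCCtgggagaagctt
Scn10a (codon 356) and Scn11a (codon 358) carry TCC, a serine codon, and Scn3a, Scn8a and Scn9a (codons 384, 371 and 362) carry TAC for tyrosine. Over the aligned bases of the coding sequence, with gaps left out, Scn10a and Scn11a were 69.2% identical, less than Scn10a and Scn8a (72.4%). Scn1a and Scn3a were 82.4% identical.

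Near-identical stretches matter for the counting, because the authors kept only reads that aligned to 1 place. Of the windows of 75 bases, the read length in the labels, 5.08% in Scn3a, 3.74% in Scn9a, 2.59% in Scn1a and 0.61% in Scn10a also occurred in transcripts of another gene, and none did in the other 5 members. The exons of Scn9a overlap 180 bases of the antisense gene Gm13629. Gm13629 was listed at 0 in all 10 libraries.

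The values are the authors' FPKM, counts of fragments scaled for transcript length and for the number of mapped reads. Levels can be set side by side between genes only as far as the length scaling holds. A gene was called detected if 2 or more replicates of one ganglion reached an FPKM of 1, which 12637 genes and 8 of the 9 members passed. The libraries' read counts were not analysed here, so no counting interval can be given. Judged by the smallest steps between values, library depths differed at most 1.56-fold, and FPKM summed to 543862 to 870872. Sensory neuron markers were high as a sum in every library, with a summed FPKM over 10 markers of 6310 to 9280 for DRG and 6570 to 7550 for TG. The sum of 9280 was that of male DRG replicate 3. Of the 10 markers 3 had their lowest DRG value there and 5 their highest.

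Male DRG replicate 3 stood apart from the other libraries, with the highest sum of FPKM and a median rank correlation of 0.849 with the rest, against 0.869 to 0.948 for the others. All 9 members had their lowest DRG value in this library, as did 35.5% of all detected genes. On the log2 scale 5 of the 8 detected members were lower there by over 1 than the median of the other 5 DRG libraries, against 18.1% of genes. Its level as a share of that median was 14.4% for Scn2b, 18.7% for Scn11a, 25.4% for Scn3b, 28.3% for Scn4b and 29.6% for Scn10a, but 68.7% to 73.4% for Scn9a, Scn1a and Scn8a. Avil, the gene whose promoter drives the GFP used for sorting, was listed at 172 there and at 555 to 1118 in the other DRG libraries. Trpv1, the capsaicin receptor of nociceptors, was at 14.5 against 65.9 to 152, while Calca, which encodes the peptide CGRP, was at 16276 against 4826 to 7898 and Pvalb, a marker of proprioceptors, at 439 against 30.0 to 111. Marker lists did not move as a whole. Of 11 nociceptor markers 6 had their lowest DRG value in this library and 3 their highest, and of 11 markers of myelinated A-fibre neurons 2 had their lowest and 6 their highest, against 23.1% of detected genes with their highest value there. Ntrk3, the neurotrophin receptor of proprioceptors, was at 6.79 against 16.4 to 27.2, opposite to Pvalb. Summed satellite glia markers were 5590 there and 1620 to 5010 in the other DRG libraries, a sum made mostly by Apoe (2689), Fabp7 (1685) and S100b (1041). Of the 10 satellite glia markers 4 were highest and 2 lowest there, with Gja1, a gap junction protein, at 4.01 against 8.25 to 18.8. The part of these differences in the results was not tested, and the members' differences between ganglia and between sexes are given with and without this library. In these bulk samples fewer cells of a type and less RNA per cell cannot be told apart.

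Scn10a encodes Nav1.8, which carries most of the rising phase of the action potential in nociceptors. It had the highest mean of the members in DRG. Its FPKM there had a lowest value of 26.2, a median of 84.8 and a highest value of 93.3, and it was 73.3 and 51.8 in male TG and 72.9 and 108 in female TG. Without male DRG replicate 3 the DRG values ran from 65.8 upward and lay inside the TG range. The means were 74.2 ± 25.5 (SD, n = 6) in DRG and 76.5 ± 23.4 (SD, n = 4) in TG, higher than 88.6% and 88.7% of detected genes.

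Scn11a encodes Nav1.9, which passes a slow, persistent current near the resting potential. Its FPKM in DRG was lowest at 14.2, with a median of 69.8 and a highest value of 89.5. In TG it was 66.7, 50.6, 72.3 and 95.2. As with Scn10a the low DRG value was that of male DRG replicate 3, and the remaining DRG values, from 51.7, overlapped those of TG. The means were 62.4 ± 27.0 (SD, n = 6) in DRG and 71.2 ± 18.5 (SD, n = 4) in TG.

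Scn9a encodes Nav1.7, a tetrodotoxin-sensitive channel that amplifies small depolarizations and without which people feel no pain. It varied less than its partners: the DRG values had a lowest of 32.8, a median of 46.3 and a highest of 58.4 FPKM, and the TG values were 33.6, 45.0, 37.2 and 53.7. The means were 45.7 ± 8.39 (SD, n = 6) and 42.3 ± 8.93 (SD, n = 4). The coefficient of variation over the DRG libraries was 18.4%, compared with 34.4% for Scn10a and 43.3% for Scn11a, and without male DRG replicate 3 the coefficients were 12.9%, 13.1% and 20.4%.

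The other tetrodotoxin-sensitive subunits were at lower levels. Scn1a encodes Nav1.1, found in the central nervous system and in myelinated sensory neurons, and it ran from 13.9 through a median of 18.7 to 22.3 FPKM in DRG, with 14.6, 21.4, 17.6 and 12.8 in TG. Scn8a encodes Nav1.6, the channel of the nodes of Ranvier, and it ran from 6.26 through 8.43 to 13.2 in DRG, with 8.37, 9.31, 8.22 and 8.31 in TG. The ganglia overlapped for both genes, and the highest Scn8a value was that of female DRG replicate 1. Means were 18.0 ± 3.28 (SD, n = 6) and 16.6 ± 3.77 (SD, n = 4) for Scn1a and 8.98 ± 2.42 and 8.56 ± 0.51 for Scn8a.

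Scn3a encodes Nav1.3, a channel of embryonic neurons that returns in rat DRG after axotomy. It was the only member below the detection filter, with 1 DRG library and 1 TG library at an FPKM of 1 or more. Values ran from 0.135 through a median of 0.614 to 1.13 in DRG and were 0.611, 0.449, 0.849 and 1.13 in TG. It therefore entered no test across genes, and an exact permutation test (two-sided, 210 arrangements) gave p = 0.581 for DRG against TG.

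**Figure D1:**
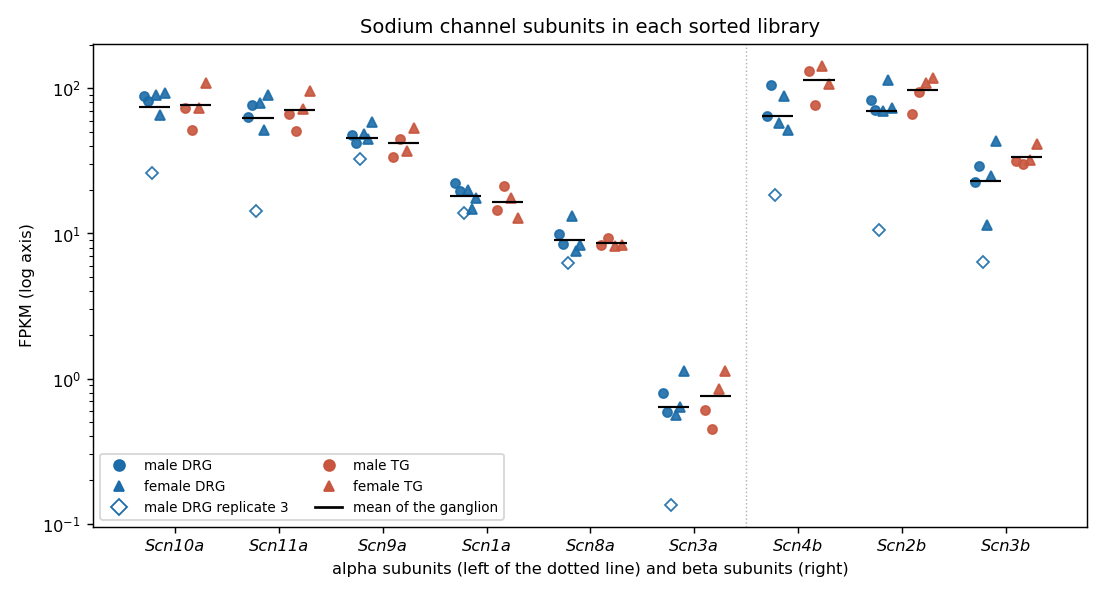
FPKM (log axis) of the 9 subunits in each library, blue for DRG and red for TG, with circles for male and triangles for female mice, an open diamond for male DRG replicate 3 and a bar at the mean of each ganglion. The open diamond is the lowest DRG point in all 9 genes, with the widest gaps in Scn2b (14.4% of the median of the other DRG libraries) and Scn11a (18.7%).

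Among the beta subunits, Scn4b encodes a protein that is bound to the alpha subunit by a disulfide bridge and whose intracellular tail can block the open pore. Its FPKM in DRG was lowest at 18.3, with a median of 61.0 and a highest value of 105. In TG it was 131 and 76.5 in males and 143 and 107 in females. Of the 4 TG libraries 3 lay above every DRG library, and 4 of the 6 DRG libraries lay below every TG library. The exceptions were male TG replicate 2 and, in DRG, male DRG replicate 2 and female DRG replicate 2, at 105 and 89.1. The means were 64.3 ± 30.2 (SD, n = 6) in DRG and 114 ± 29.2 (SD, n = 4) in TG, a ratio of 1.78, or 1.55 without male DRG replicate 3.

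Scn2b, also disulfide-linked, is known to raise the number of channels at the cell surface. Its FPKM in DRG was lowest at 10.5, with a median of 71.7 and a highest value of 114, and in TG it was 66.5, 94.7, 109 and 118. The ganglia overlapped, with female DRG replicate 2 above 3 of the TG libraries and male TG replicate 1 below all DRG libraries but 1. The means were 69.9 ± 33.5 (SD, n = 6) and 96.9 ± 22.4 (SD, n = 4).

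Scn3b is bound to the alpha subunit without a disulfide bridge. Its FPKM in DRG was lowest at 6.35, with a median of 23.8 and a highest value of 43.6, and in TG it was 31.5, 30.1, 32.1 and 41.6. Of the 6 DRG libraries 5 lay below every TG library, and the remaining one, female DRG replicate 3, lay above every TG library. The means were 23.1 ± 13.2 (SD, n = 6) and 33.8 ± 5.26 (SD, n = 4).

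By mean FPKM the order in DRG was Scn10a, Scn2b, Scn4b, Scn11a, Scn9a, Scn3b, Scn1a, Scn8a and Scn3a. Neighbours differed by more than their spread, with separate mean ± SD ranges and the same order in 6 of 6 libraries, for Scn9a over Scn3b, Scn1a over Scn8a and Scn8a over Scn3a. Neighbours among the first 5, and Scn3b and Scn1a, could not be separated. In TG the order began with Scn4b, Scn2b, Scn10a and Scn11a and then continued as in DRG. There Scn11a over Scn9a, Scn3b over Scn1a, Scn1a over Scn8a and Scn8a over Scn3a were separate, each in 4 of 4 libraries. Scn10a was above Scn11a in 4 of 4 TG libraries by a ratio of means of only 1.07, within the spread. For Scn1a and Scn8a the authors' mean counts over all libraries, not scaled for transcript length, ran the other way, at 728 and 1142. The annotated transcripts used here have 8386 and 11436 bases. Scaling the counts by these lengths alone does not turn their order. The order of this pair therefore depends on the measure, for a reason that was not tested, and their shares below carry the same limit.

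Within a library the alpha subunits can be set against each other as shares of their summed FPKM, which does not depend on the scaling between libraries. The tetrodotoxin-resistant Scn10a and Scn11a, with the serine codon, together made 62.7% ± 9.77 (SD, n = 6) of the sum in DRG and 67.7% ± 7.01 (SD, n = 4) in TG. In 5 of the DRG libraries this share was 63.5% to 69.0%, and in male DRG replicate 3 it was 43.2%. The next lowest was male TG replicate 2 at 57.4%, with the other TG libraries reaching up to 72.8%. In male DRG replicate 3 the largest share belonged to Scn9a with 35.1%, against 18.4% to 24.2% in the other DRG libraries. The mean shares in DRG and TG were 34.6% and 35.0% for Scn10a, 28.1% and 32.7% for Scn11a, 23.2% and 19.8% for Scn9a, 9.26% and 8.10% for Scn1a, 4.53% and 4.09% for Scn8a, and 0.289% and 0.343% for Scn3a. No test was made of these shares.

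**Figure D2:**
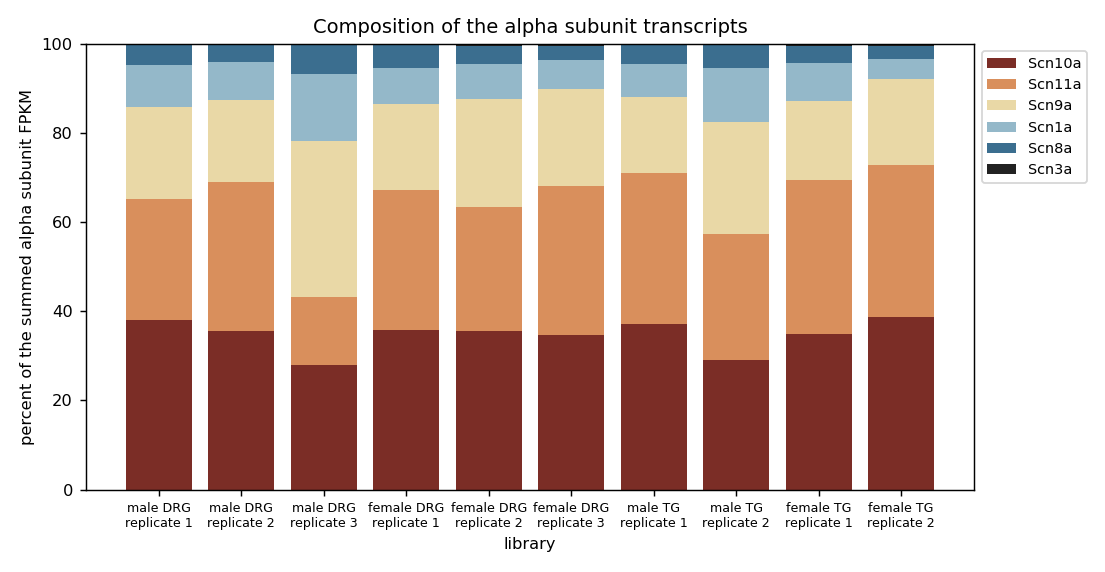
Stacked bars of the percent of the summed alpha subunit FPKM taken by each alpha subunit in each of the 10 libraries. Scn10a and Scn11a fill 63.5% to 69.0% of the bar in 5 DRG libraries and 43.2% in male DRG replicate 3.

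The main comparison of the study asked whether DRG and TG neurons differ. For the sodium channels, beta subunits leaned to TG and alpha subunits to neither, and no member passed the test. Log2(FPKM + 1) was fitted for all detected genes in limma on ganglion and sex together, with adjustment over all 12637 genes and a threshold of 0.05. Of the 8 members tested 0 were called, against 0.111% of genes (14, with 10 higher in DRG and 4 higher in TG). The log2 fold change, DRG minus TG, was -0.96 for Scn4b (SE 0.40, 95% interval -1.83 to -0.08, unadjusted p = 0.0346, adjusted p = 0.772 by limma). The exact permutation test of Scn4b (210 arrangements, two-sided) gave p = 0.0571. The numbers in the descriptions pair 4 DRG with 4 TG libraries, and Scn4b was higher in TG in 4 of 4 pairs. A fit of these 8 libraries alone with the pairs as blocks put Scn4b at -1.01 on the log2 scale (SE 0.29, unadjusted p = 0.00789, adjusted p = 0.441 by limma). The same 8 libraries without the block also gave -1.01 (SE 0.49, unadjusted p = 0.0667, adjusted p = 0.918 by limma). The exact test of sign changes within pairs, added after seeing the data, gave p = 0.125 (two-sided), the smallest that 4 pairs allow. Scn3b was higher in TG in 3 of 4 pairs and Scn2b in 2 of 4. At an unadjusted p of 0.05, 1 of 8 members was higher in TG, where 4.06% of genes were, and 0 were higher in DRG, where 2.29% were.

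The other beta subunits leaned the same way. Scn3b had a log2 fold change of -0.75 (SE 0.42, limma adjusted p = 0.792) and Scn2b one of -0.71 (SE 0.47, limma adjusted p = 0.807). The median over the 3 beta subunits was -0.75, over the 5 alpha subunits tested 0.03, over the 8 members -0.23 and over all genes -0.05. Of the alpha subunits, Scn11a was at -0.35 and Scn10a at -0.11, with Scn1a at 0.12, Scn9a at 0.11 and Scn8a at 0.03. Their 95% intervals all held 0, the narrowest being -0.34 to 0.56 for Scn9a and the widest -1.21 to 0.52 for Scn11a, so a difference of 1 on the log2 scale lay outside the interval for Scn1a, Scn8a, Scn9a and Scn10a but not for Scn11a.

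Leaving out male DRG replicate 3 moved these values. Scn4b went to -0.64 (limma adjusted p = 0.597, permutation p = 0.0714 over 126 arrangements, two-sided exact), Scn3b to -0.45 and Scn2b to -0.26, while Scn10a turned to 0.14 and Scn11a to 0.00. Without the 3 DRG libraries that stand farthest apart, a choice made after seeing the data, Scn4b was at -0.35, Scn3b at -0.36 and Scn2b at -0.03. Schwann cell and myelin markers, which sorted neurons should lack, also leaned to TG: 9 of the 10 tested had a negative log2 fold change (median -0.50, none called), where 7039 of all 12637 genes had one, and their summed FPKM was 887 to 1390 in DRG and 1340 to 1920 in TG. Of their defining genes none was at 0 throughout, with Mbp, a myelin protein, at a mean of 101 in DRG and 162 in TG. Markers of A-fibre neurons leaned to DRG, with 8 of 11 positive (median 0.30, none called). Of the satellite glia markers 7 of 10 were positive (median 0.16, none called), but their summed FPKM went the other way. That sum was 1620 to 5590 in DRG (mean 3700) and 4190 to 5620 in TG (mean 4980), with Apoe at means of 2248 and 3914. The part of these cell types in the lean of the beta subunits was not tested.

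**Figure D3:**
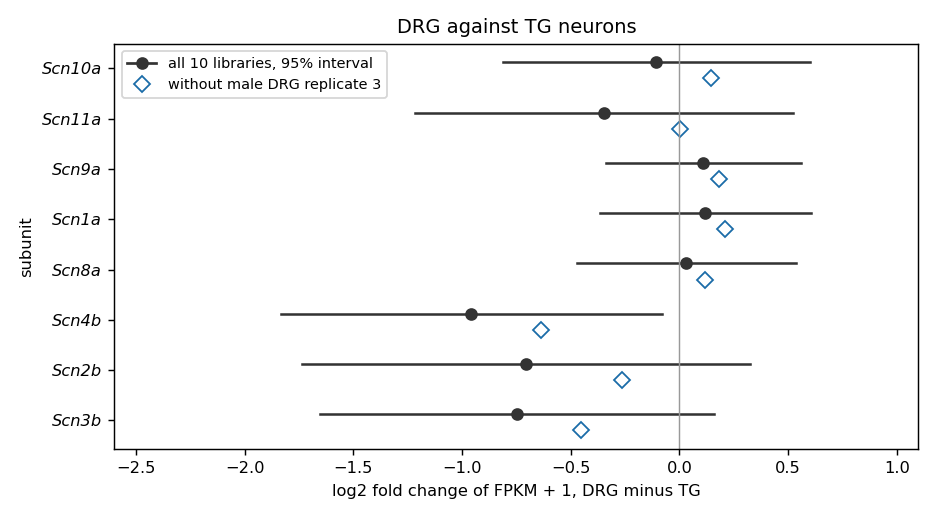
Log2 fold change of FPKM + 1, DRG minus TG, of the 8 tested subunits, as a filled circle with its 95% interval for all 10 libraries and an open diamond without male DRG replicate 3. The 3 beta subunits lie left of 0 with both sets of libraries (-0.96 to -0.71 and -0.64 to -0.26), and the alpha subunits lie around 0.

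Between male and female mice no member passed either: 0 of 8 were called, against 0.0237% of genes (3). In 7 of the 8 the fitted value was lower in males. Scn2b had a log2 fold change, male minus female, of -0.82 (SE 0.46, limma adjusted p = 0.816), with mean FPKM of 65.0 ± 32.4 in 5 male and 96.5 ± 23.4 in 5 female libraries. Scn11a was at -0.67 (SE 0.39) and Scn10a at -0.51 (SE 0.32). Scn1a, at 0.13, was the member higher in males. The sexes overlapped for all 9 members, and the lowest male value was that of male DRG replicate 3 in each.

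At an unadjusted p of 0.05, 0 members were higher in males (2.19% of genes) and 0 in females (1.91%). Without male DRG replicate 3 the male minus female value was -0.30 for Scn2b, -0.25 for Scn11a and -0.21 for Scn10a. It was -0.18 for Scn9a, -0.04 for Scn3b and 0.25 for Scn1a, and Scn8a and Scn4b turned to 0.02 and 0.05, so 5 of the 8 remained lower in males. The interaction of ganglion and sex, which asks whether the difference between ganglia depends on sex, called 0 members and 0% of genes (148 at an unadjusted p under 0.05, in limma), and likewise 0 without male DRG replicate 3. Its intervals were wide, from -1.91 to 1.82 for Scn4b.

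Some subunits moved together from library to library and others did not. Scn10a and Scn11a, the neighbours on chromosome 9, had the highest correlation of any pair of members (r = 0.967 over 10 libraries, 0.882 over the 9 without male DRG replicate 3). The ratio of Scn10a to Scn11a was 1.04 to 1.84 in DRG, with the highest in male DRG replicate 3, and 1.01 to 1.14 in TG. Scn4b and Scn2b, also neighbours, had r = 0.839 over 10 libraries but 0.338 over 9. Scn9a and Scn4b went from 0.063 to -0.753 and Scn8a and Scn3b from 0.024 to -0.825 when the library was left out. These values describe 10 libraries whose FPKM share the scaling and, in DRG, 1 distant library, and carry no test.

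**Figure D4:**
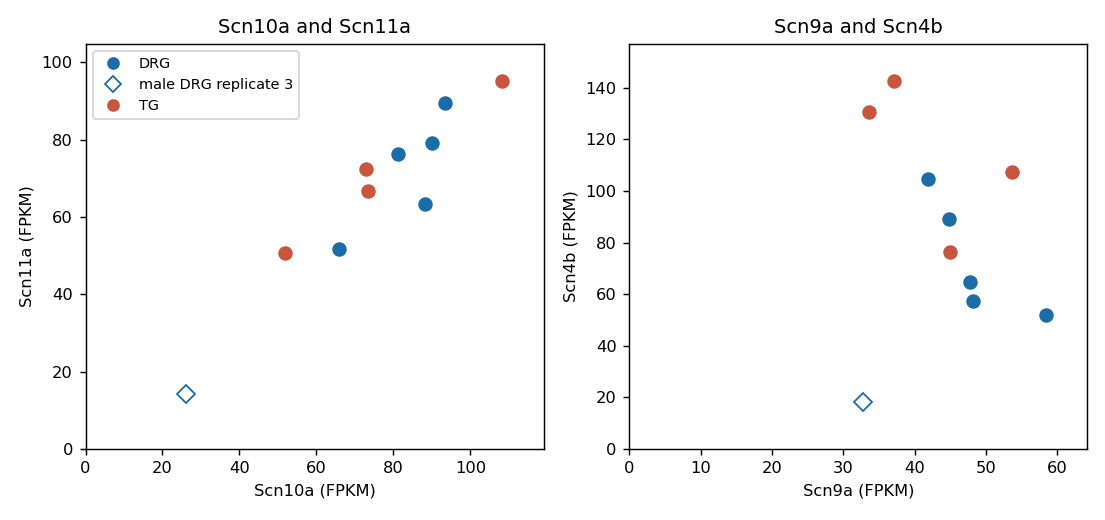
FPKM of Scn11a against Scn10a (left) and of Scn4b against Scn9a (right), 1 point for each library, blue for DRG, red for TG and an open diamond for male DRG replicate 3. The left panel runs along a line (r = 0.967), and on the right the diamond lies apart from points that fall from left to right (r = 0.063 with it and -0.753 without it).

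The genes most like each member were sought among 5135 detected genes with a mean FPKM of at least 10, by Pearson r over the 10 libraries. For Scn10a they were Robo2, F2r and Lclat1 (r = 0.97 to 0.975, and 0.879 to 0.91 over 9 libraries) and for Scn11a Dnm1l, Prkacb and Camk2d (0.988 to 0.991, and 0.928 to 0.944). For Scn9a they were Btg2, Mycbp2 and Ank2 (0.848 to 0.913, and 0.794 to 0.881). Robo2 is a receptor in axon guidance, F2r the thrombin receptor, and Camk2d and Prkacb are kinase subunits. For Scn1a they were Atp5s, Msmo1 and Ackr1 (0.832 to 0.865, and 0.824 to 0.879), for Scn8a Ank, Zdhhc2 and Phf20 (0.957 to 0.962, and 0.937 to 0.945) and for Scn3a Rps6ka2, Atg7 and Shoc2 (0.938 to 0.954, and 0.872 to 0.905). Scn3a was below the detection filter, at 0.135 to 1.13 FPKM, so its r describes values near the floor. For the beta subunits they were Frzb and Syvn1 for Scn4b (0.992 and 0.985, and 0.975 and 0.958 over 9 libraries), Mccc2, Atg13 and Orc3 for Scn3b (0.973 to 0.984, and 0.938 to 0.963) and Rufy2, Fen1 and Rab39 for Scn2b. The likeness of Scn2b rested most on male DRG replicate 3, since its r of 0.969 to 0.973 over 10 libraries became 0.65 to 0.681 over 9.

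The deposited workbook also holds 2 columns of the authors' means from their earlier study: DRG neurons purified by magnetic sorting (MACS), and DRG cells dissociated without sorting, which contain satellite glia. The per-sample columns of that study were not used, so the means are given without spread. They were normalized apart from the FACS libraries, and no test was made. The members went both ways between these preparations. Scn1a, Scn8a and Scn4b were lower after magnetic sorting, at 4.61, 6.54 and 23.0 FPKM against 24.0, 29.6 and 109 in dissociated cells, or ratios of 0.192, 0.221 and 0.212. Scn10a and Scn11a were higher, at 273 and 246 against 165 and 120, or ratios of 1.66 and 2.06.

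Of the 8 members with a ratio, 3 were at 0.5 or less, where 10.9% of 11366 detected genes were, and 2 at 2 or more, where 3.99% were. The second of the latter was Scn2b, at 43.2 against 15.8, with a ratio of 2.74. Scn3b and Scn9a were at 1.67 and 1.39, and the median over all genes was 1.0. Scn3a, below the filter in the FACS libraries, was at 1.54 against 0.887. The neighbours Scn10a and Scn11a had ratios on the same side of 1, and the neighbours Scn2b and Scn4b, 8.3 kb apart, had ratios on opposite sides.

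Markers moved with these ratios. Of 11 markers of myelinated A-fibre neurons 9 were at 0.5 or less and 0 at 2 or more (median 0.232), among them Nefh, the heavy neurofilament, at 75.2 against 615, and Pvalb at 7.53 against 81.5. Of 11 nociceptor markers 0 were at 0.5 or less and 4 at 2 or more (median 1.82). Of 10 satellite glia markers 9 were at 0.5 or less (median 0.0304), with Apoe at 35.1 against 3212. The part of these cell types in the ratios was not tested.

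In the FACS libraries Scn1a, Scn8a and Scn4b had mean levels between those means, at 18.0, 8.98 and 64.3. Scn10a and Scn11a, at 74.2 and 62.4, were below both means. Of the summed alpha subunit means, Scn10a and Scn11a made 85.9% after magnetic sorting and 72.8% in dissociated cells, set beside 65.1% of the summed means of the FACS-sorted DRG libraries, or 66.8% without male DRG replicate 3.

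**Figure D5:**
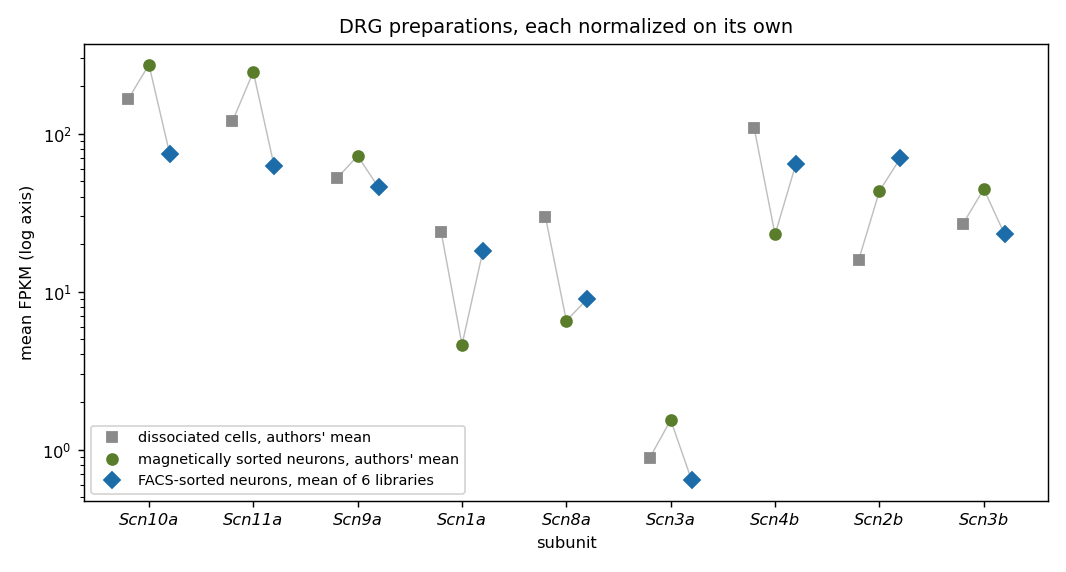
Mean FPKM (log axis) of the 9 subunits in dissociated DRG cells (squares) and magnetically sorted DRG neurons (circles), both the authors' means, and in FACS-sorted DRG neurons (diamonds, mean of 6 libraries), with grey lines joining the values of a gene. The preparations were normalized separately; the circle lies lowest for Scn1a, Scn8a and Scn4b and highest for Scn10a, Scn11a, Scn9a, Scn3a and Scn3b.

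The remaining genes of the family and the proteins that act on the channels were tested in the same fit, and of 27 tested in 4 lists 0 were called between the ganglia. Among the other family members, Scn7a, a sodium sensor rather than a voltage-gated channel, had mean FPKM of 26.1 ± 12.5 in 6 DRG libraries and 21.5 ± 2.59 in 4 TG libraries. Scn2a1, the symbol in the table for the gene of Nav1.2, was at 3.62 ± 1.83 and 3.41 ± 1.38. Scn4a, the skeletal muscle channel, appeared in 2 rows below the filter and is uncertain.

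Of the FGF homologous factors, intracellular proteins that bind the tail of the alpha subunit, Fgf13 was at 517 ± 143 (SD, n = 6) in DRG and 540 ± 16.8 (SD, n = 4) in TG, above every member, with Fgf12 at 92.6 ± 12.3 and 71.2 ± 19.6. Fgf11 was at 1.58 ± 0.955 and 0.781 ± 0.431. The median log2 fold change of the 3 tested was 0.40, with none called. Of the proteins that anchor channels at the initial segment and the node, 5 were tested with a median of -0.06. Cntn2 was at 13.8 ± 4.66 and 18.4 ± 2.19, Cntn1 at 26.3 ± 8.39 and 28.6 ± 4.03, Nfasc at 4.67 ± 1.60 and 4.76 ± 0.640 and Nrcam at 4.90 ± 1.37 and 4.57 ± 1.22. All 4 are cell adhesion molecules of the immunoglobulin family.

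The 16 genes of channel trafficking, turnover and modulation were all tested, with 11 positive and 5 negative log2 fold changes, a median of 0.10 and none called. S100a10, which is known to carry Nav1.8 to the membrane, had means of 1562 ± 808 (DRG) and 1095 ± 336 (TG). Its highest value, 3145, was in male DRG replicate 3, where Scn10a was lowest. Calm2 and Calm3, genes of the calcium sensor calmodulin, were at 2865 ± 768 and 96.7 ± 31.7 in DRG and 2394 ± 324 and 77.1 ± 9.41 in TG, and Pdzd2, a scaffold protein, at 2.85 ± 3.50 and 3.77 ± 1.84. Dpysl2, whose protein CRMP2 is known to act on Nav1.7 trafficking, was at 90.7 in male DRG replicate 3 and at 1032 to 1383 in the other DRG libraries.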

How the data were processed

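The FPKM of the 10 FACS libraries were deposited by the authors, who aligned reads uniquely to mm10 with STAR and made the values with cufflinks; versions are not given in the sources used here. The authors' mean FPKM of magnetically sorted and of dissociated DRG cells come from their earlier study, for which the aligner and build are not given in the sources used here. The authors also deposited a signal per gene, averaged by them from counts scaled with DESeq2 size factors, which ran from 74.1 in Scn3a to 5788 in Scn10a. The authors' tables of comparisons hold their own fold changes and p-values and were not used, and 22 per-sample columns were left out, 12 of the earlier study and 10 that repeat FPKM.

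Detected genes were fitted as log2(FPKM + 1) on ganglion and sex in limma 3.58.1 under R 4.3.3, by lmFit and eBayes (trend), and Benjamini-Hochberg adjustment took in every gene tested. A fold change on this scale understates the change of low genes. Members were also compared by exact permutation over libraries. Positions and codons came from GENCODE M21 on GRCm38, and coding sequences were aligned with Biopython 1.88. The replicates within a ganglion are separate animals.

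The members and gene lists were chosen with earlier results of these data known. All 9 members are named, and of each list the genes that passed, otherwise up to 4 with the smallest p. For likeness the 3 genes of highest r were named. Some genes that these rules would name, and 1 sequence, are not reported here. Scn4a and Dpysl2, and the markers named for male DRG replicate 3 and for the preparations, were chosen after their values were seen, as were the ratios of 0.5 and 2. The numbers in the descriptions pair 4 DRG with 4 TG libraries. Deviations of paired libraries from the means of their ganglia correlated by 0.148 to 0.383, all over the limit of 0.1. The lowest, 0.148, was barely above 0.146, the best correlation of its DRG library elsewhere. Paired libraries share their sex, which was not taken out of these deviations. The sources used here do not say whether paired libraries came from the same mice. Tried in turn were a pseudocount of 0.5 or 0.1, dropping the filter or raising it to 5, rescaling by median ratio or quantiles, leaving out the other factor or the trend, array weights, 2 kinds of replicate block, and removal of each library.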

Additional observations from a re-analysis of the deposited data

Results flagged for a closer look

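Scn8a, the gene of the nodal channel Nav1.6, was at 9.31 FPKM in male TG replicate 2 and at 8.22 to 8.37 in the other 3 TG libraries, a gap to the rest that is wide for a range so narrow. It was the single value of this kind among 18 combinations of gene and ganglion examined, and chance gives about 1 in 20. The DRG values of Scn8a ran from 6.26 to 13.2 and enclose it.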

How the results depend on the processing

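No member was called in any alternative run for each comparison, among them pseudocounts, filters, rescaling, weights and each library left out, and the replicate blocks, which were fitted between the ganglia alone. With the block for the paired libraries 17 genes were called, against 15 in the same 8 libraries without it. The block gave Scn4b a log2 fold change of -1.01 (adjusted p = 0.441) and turned Scn8a to -0.15, as those libraries without the block did (-0.15). The numbers in the titles do not pair the libraries, and a block by them turned Scn10a to 0.12, as did those 8 libraries without it (0.12, with 22 genes called in place of 14). Scn4b, Scn3b and Scn2b stayed negative in all 24 alternatives (-1.19 to -0.35, -0.96 to -0.36 and -0.92 to -0.03, lowest adjusted p 0.235, 0.423 and 0.558).

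Array weights called 118 genes between the ganglia, 5 between the sexes and 1 for the interaction, and turned Scn10a to 0.0192 (DRG minus TG) and Scn8a to 0.0524 (male minus female). Without the 3 DRG libraries farthest apart, an alternative added like the unblocked sets after seeing the data, the counts were 31, 7 and 8, Scn10a was at 0.10 and Scn8a at -0.0139, and Scn8a was at 0.15 by sex. Quantile normalization turned Scn8a to 0.0227 by sex, and no filter gave 3 genes for the interaction. Leaving out 1 library gave 11 to 25 genes between the ganglia, 25 without male DRG replicate 3, and 0 to 5 for the interaction. Over these sets Scn8a ran from -0.0838 to 0.118, Scn9a from -0.0032 to 0.201, Scn10a from -0.245 to 0.145 and Scn11a from -0.531 to 5e-04, and by sex Scn8a from -0.147 to 0.0538 and Scn4b from -0.617 to 0.0529. The cause of these changes was not tested. The spread over 4 to 6 animals per ganglion limits what can be seen, as the intervals of the beta subunits show.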
